A study of Arabidopsis thaliana with 4 samples.

Results

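MATE proteins (multidrug and toxic compound extrusion) are membrane carriers that move small organic molecules or ions out of the cytosol, into the vacuole or across the plasma membrane, in exchange for protons or sodium. Plants have many more of these genes than animals, and in Arabidopsis several stand side by side in tandem arrays. Known cargoes include flavonoids, defence phenolics, alkaloids, hormones and citrate. The genes described here are those of a list of 51 Arabidopsis MATE loci for which the ATH1 microarray carries a probe set annotated to that gene alone. The rule found 34 such loci among 13286 loci with a single-gene probe set on the whole array, and the brightest probe set of each locus was used. Another 10 loci are read in pairs by 5 shared probe sets, which cannot assign a signal to either gene of a pair. The annotation used here gave no probe set for the remaining 7 loci, among them TT12, ALF5, DTX1 and DTX35, so these were not analysed here.

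RNA came from the shoots of Arabidopsis thaliana seedlings at stage 1.02, including hypocotyl, cotyledons, meristem and the first leaves, grown in soil at 29 °C under 24 h of light after 4 days at 4 °C. The add3 group (ARRESTED DEVELOPMENT 3) carried an EMS-induced mutation in the Col-3 gl1 background, in which gl1 is a leaf-hair mutation, and the wild-type group was Col-0. Mutation and background therefore differed together and their effects cannot be told apart. Each group had 2 samples on 1 array each, and because the labels name no separate batches of plants the p-values measure how far these particular samples scatter, and that scatter may be technical.

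Each value is a MAS5 signal on a linear scale. Differences were tested with limma on log2(signal + 12.5) over the 13648 probe sets whose mean signal reached the 40th percentile (33.2), with Benjamini-Hochberg adjustment and a threshold of 0.05, and a log2 difference is mutant minus wild type. On this scale the change of a dim gene is understated. In all, 569 probe sets rose and 428 fell (7.31% of those tested), so 57.1% of the calls were rises. After median scaling of the arrays the share of rises was 74.5%. As background, each array's highest signal among 27 bacterial control probe sets was taken, which was 25.4 in mutant replicate 1 and 12.3 in mutant replicate 2. In wild type it was 20.5 for the first array and 13 for the other. The shoot label could be checked on few markers: RCA, the Rubisco activase of green tissue, had signals of 3086 to 3537 on the 4 arrays. Of 7 root markers, AT3G49960, XTH21 and AT3G01190 were not above background on any array, while PYK10, a glucosidase also made in hypocotyls, and AT5G44020 had signals of 995 or more throughout.

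Of the 34 MATE genes 15 reached the filter and were tested. Among them 2 fell in the mutant and none rose, AT3G23550 and AT1G66760, and a further fall was seen in the probe set shared by the neighbours AT4G21903 and AT4G21910. Falls made up 13.3% of the tested members, against 3.14% of all tested probe sets, and rises 0 against 4.17%. At an unadjusted p under 0.05 in limma, 4 members were lower and 1 was higher, where the background over all tested probe sets was 14% lower and 12.3% higher. The median log2 difference of the 15 was -0.14, against -0.05 for all tested probe sets, and the members ranged from -2.01 to 0.54. Estimates were below 0 for 10 of the 15 (background 55.9%) and above 0 for 5, and after median scaling for 9 and 6. Of the 15, 7 had both mutant signals under both wild-type signals (46.7%, background 32.3%) and 2 had both above (13.3%, background 24.8%). The members were listed with earlier results of these data known, so no excess of falls can be read from these shares. In a bulk sample a lower signal can come from fewer cells of a type or from less RNA per cell, which cannot be told apart.

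**Figure D1:**
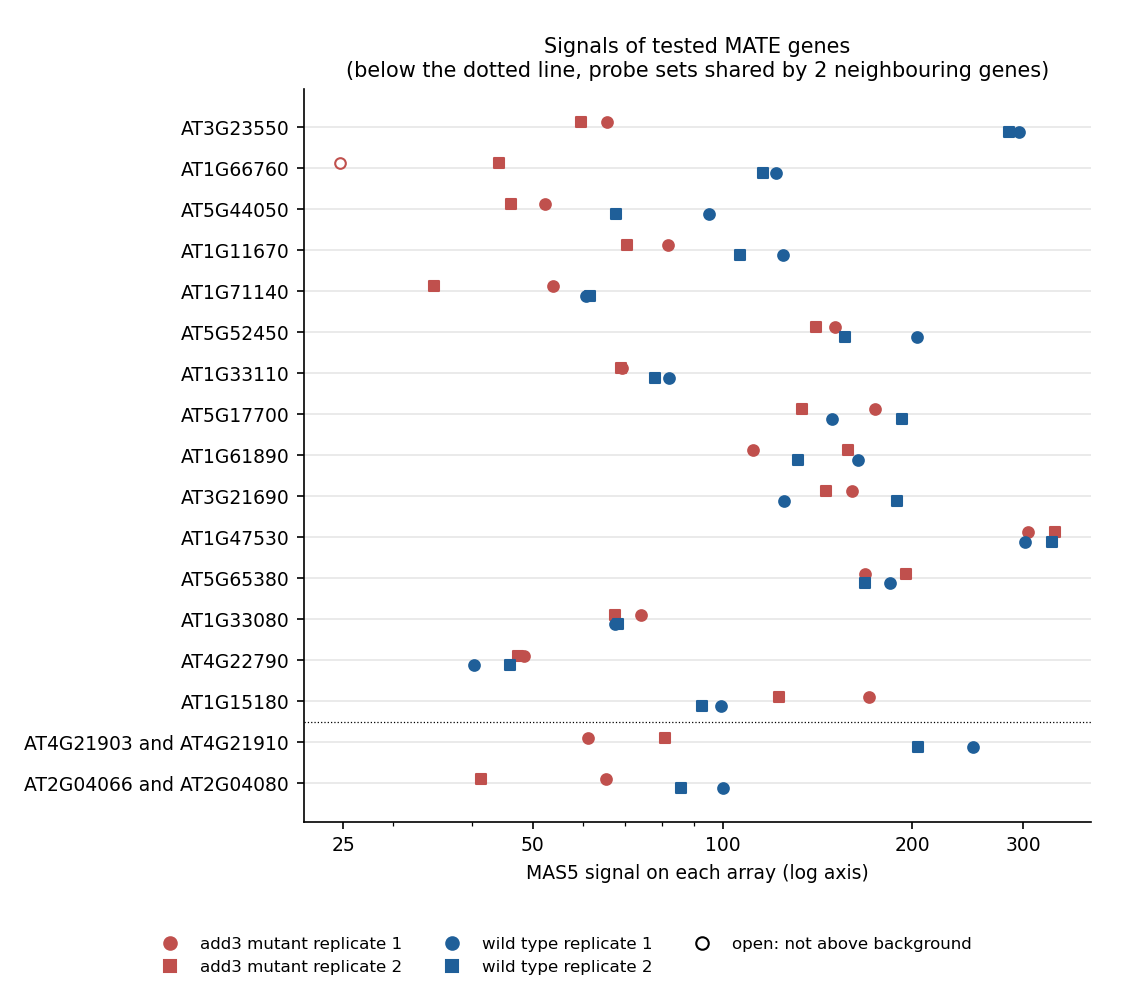
MAS5 signal on each array (log axis) for the 15 tested MATE genes, ordered by their difference. Below the dotted line are 2 probe sets, each shared by a pair of genes from the same tandem array. Red symbols are add3 mutant arrays and blue symbols wild-type arrays, circles are replicate 1 and squares replicate 2, and an open symbol is not above the background level of its array. AT3G23550, AT1G66760 and the shared probe set of AT4G21903 and AT4G21910 have mutant signals far to the left of the wild-type signals, and of the other 13 genes 6 have overlapping groups.

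AT3G23550 encodes a plasma membrane MATE carrier known to export hydroxycinnamic acid amides, phenolic defence compounds of the leaf surface. Its signals were 65.5 and 59.5 in the mutant and 296 and 285 in wild type. The groups lay far apart and all 4 arrays were above background. The gene fell by 2.01 on the log2 scale (SE 0.13, limma adjusted p = 0.00381), and the wild-type mean signal was 4.65 times the mutant mean. The differences between a mutant and a wild-type array ran from -2.1 to -1.93 over the 4 pairs, while replicates differed by 0.11 in the mutant and 0.05 in wild type. Of all 13648 tested probe sets it had the 11th largest fall and the 3rd smallest p. Its call held under each of the 13 alternative settings, including the limma test with no filter on low signals (adjusted p = 0.0383), which called 0.0572% of all probe sets, with adjusted p-values of 0.000393 to 0.0252 when 1 array was left out.

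The gene next to AT3G23550 is ALF5, a MATE gene known for protecting roots against toxins. No other gene lies between them in the TAIR10.1 gene table. Since ALF5 has no probe set in the annotation used, whether the fall extended to the neighbour was not tested. The enzymes that make hydroxycinnamic acid amides could not be set beside the carrier either, because none of 11 listed genes of that pathway had a single-gene probe set here.

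AT1G66760 is a member of the same branch of the family whose cargo is not named in the sources used here. Its signals were 24.7 and 44.2 in the mutant and 121 and 116 in wild type. The wild-type arrays were close together, and the mutant arrays were lower and apart from each other. On mutant replicate 1 the signal did not exceed the background level of 25.4, and so the size of the fall is uncertain. AT1G66760 fell by 1.52 on the log2 scale (SE 0.22, limma adjusted p = 0.0142), the 37th largest fall among the tested probe sets. Its difference was -1.21 without mutant replicate 1 and -1.82 without mutant replicate 2. The call was lost with no filter on low signals (limma adjusted p = 0.0657). Its tandem neighbour AT1G66780, separated by 1 gene, had dim signals of 17.9 and 19.6 in the mutant and 17.7 and 15.2 in wild type. AT1G66780 was under the filter, and the 2 neighbours were not tested against each other.

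The shared probe set of AT4G21903 and AT4G21910, adjacent genes of another branch that includes the flavonoid carriers, gave 61.2 and 81.0 in the mutant and 249 and 204 in wild type. The groups did not overlap and all 4 arrays were above background. The probe set fell by 1.52 on the log2 scale (SE 0.17, limma adjusted p = 0.0103), and the 4 pairs of arrays differed by -1.83 to -1.21. The call was lost with no filter on low signals (limma adjusted p = 0.0511). Because the annotation gives both loci, the fall belongs to one of them or to both, and it is not counted among the 15.

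**Figure D2:**
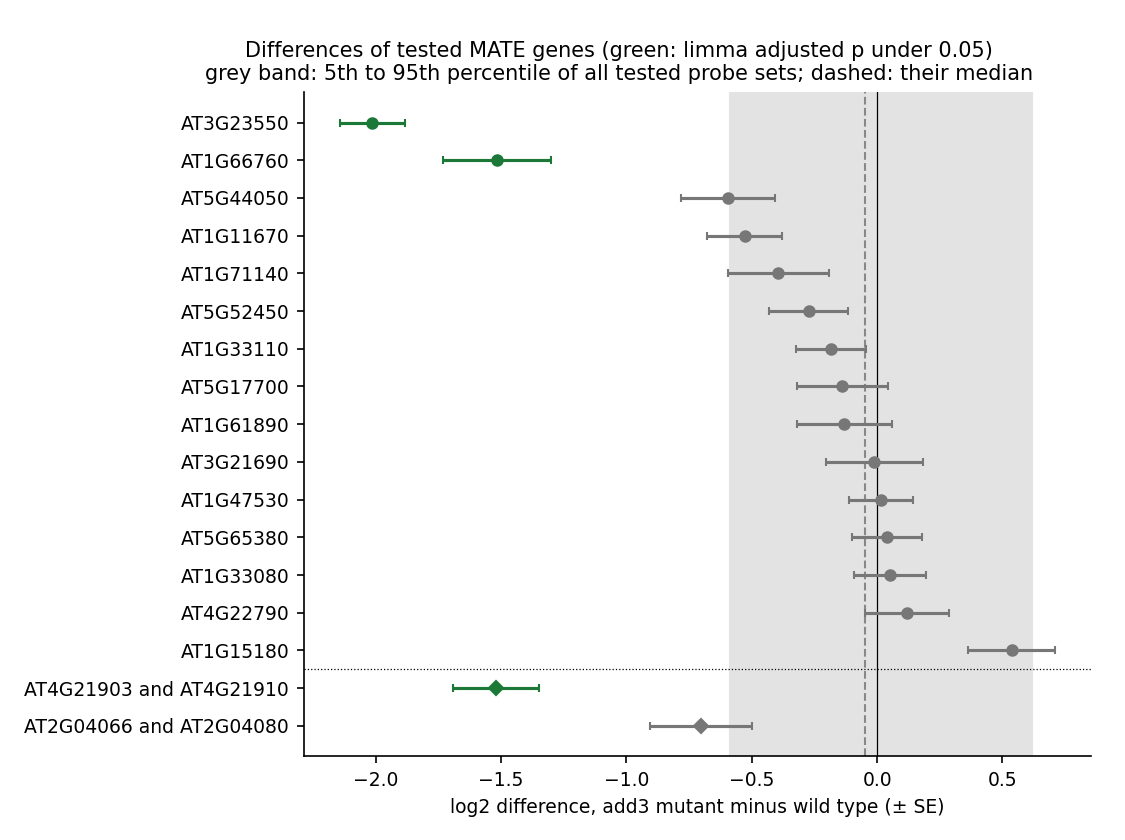
Log2 difference between add3 mutant and wild type, with its SE (n = 2 arrays in each group), for the 15 tested MATE genes and, under the dotted line, 2 shared probe sets. Green marks a limma adjusted p under 0.05, the grey band spans the 5th to the 95th percentile of all tested probe sets (-0.59 to 0.62), and the dashed line is their median. AT3G23550, AT1G66760 and 1 shared probe set lie well outside the band, and 12 of the other 13 genes lie inside it.

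The other 13 tested members did not pass the threshold, with adjusted p-values of 0.0795 and above. AT5G44050 had signals of 52.2 and 46.1 in the mutant and 95.3 and 67.7 in wild type (log2 difference -0.59, SE 0.19, limma adjusted p = 0.102). AT1G11670 had 82.0 and 70.5 in the mutant and 125 and 107 in wild type (log2 difference -0.53, SE 0.15, limma adjusted p = 0.0795). Both had mutant arrays below wild-type arrays, and in AT5G44050 the gap between the closest arrays was smaller than the spread within wild type. AT1G71140 had 53.8 and 34.9 against 60.6 and 61.7 (log2 difference -0.39, limma adjusted p = 0.264), where the mutant arrays differed more from each other than the upper one did from wild type. AT5G52450 had 151 and 141 against 204 and 156 (log2 difference -0.27, limma adjusted p = 0.318), and AT1G33110 had 69.3 and 68.9 against 82.3 and 78.1 (log2 difference -0.18, limma adjusted p = 0.446).

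AT1G15180 had the highest difference among the 15 tested members, with signals of 171 and 123 in the mutant and 99.6 and 92.7 in wild type. The groups did not overlap, but the mutant arrays lay far apart and the gene did not pass the threshold (log2 difference 0.54, SE 0.17, limma adjusted p = 0.108). It stands in a tandem array of 4 MATE genes. The neighbouring AT1G15170 also had both mutant signals, 38.3 and 38.9, above both wild-type signals, 27.8 and 23.3, and lay just under the filter with a mean signal of 32.1. The pair AT1G15150 and AT1G15160, read by 1 shared probe set, had 8.61 and 11.8 in the mutant and 11.5 and 17.8 in wild type, above background on 1 array.

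AT3G23550 was the only call among carriers with a named function, but few of these carriers were tested. TT12, ALF5, DTX1 and DTX35, for example, had no probe set in the annotation used. AT1G47530, which moves chloride across the vacuole membrane, had signals of 305 and 338 in the mutant and 302 and 333 in wild type (log2 difference 0.01, SE 0.13, limma adjusted p = 0.955). The 2 groups were almost interleaved array by array. AT4G22790, a carrier required for stomatal closure at high carbon dioxide, had 48.4 and 47.4 against 40.3 and 46.0 (log2 difference 0.12, SE 0.17, limma adjusted p = 0.697), with both mutant arrays slightly above both wild-type arrays. AT5G52050, an exporter of abscisic acid, was under the filter with 25 and 42.5 in the mutant and 22.3 and 6.37 in wild type. The groups did not overlap, but replicates differed more than the closest arrays of the groups, and 1 array of each group was not above background.

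The remaining tested members showed little difference. AT5G17700 had 175 and 133 in the mutant and 149 and 193 in wild type, AT1G61890 had 112 and 158 against 164 and 132, and AT3G21690 had 161 and 146 against 125 and 189.5. In each of these genes the wild-type arrays lay on both sides of at least 1 mutant array, and the log2 differences were -0.14, -0.13 and -0.01. The sign of AT3G21690 was opposite after median scaling (0.08) and with quantile normalization (0.01). Overlapping groups were also found for both remaining genes. AT5G65380 had 168 and 195 against 184 and 168 (log2 difference 0.04), and AT1G33080 had 74.2 and 67.5 against 67.4 and 68.3 (log2 difference 0.05). Limma adjusted p-values of these 5 genes were 0.668 to 0.978, and with 2 arrays a group such values do not show that expression was equal.

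By branch of the family tree, taken from general knowledge and not checked on sequences here, the 20 listed loci of the branch with DTX1 and ALF5 had 12 with a probe set and 5 tested. The 2 falls were among these 5, where 3.14% of all tested probe sets fell. The median log2 difference of the 5 was -0.39. Each of the 5 had groups that did not overlap, 4 lower and 1 higher, where the background over all tested probe sets was 32.3% lower and 24.8% higher. The branch with TT12 and DTX35 had 22 listed loci, 15 with a probe set and 9 tested, and its median was -0.13. None of the 9 was called, where 3.14% of all tested probe sets fell and 4.17% rose. At an unadjusted p under 0.05 in limma 2 of the 9 were lower and 0 higher (background 14% lower and 12.3% higher). The shared probe set of AT4G21903 and AT4G21910, also of this branch, is not counted among the 9. It fell (log2 difference -1.52, limma adjusted p = 0.0103). The branch with AT5G52050 had 9 listed loci, 7 with a probe set and 1 tested, AT4G22790. The branches were not tested against each other, and the choice of members with earlier results known limits these shares as well.

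Tandem arrays hold 21 of the 51 loci, in 6 groups with at most 5 other genes between neighbours. Of these 21, 10 are read by the shared probe sets, 9 by a probe set of their own and 2 by none, and 5 were tested. In the array of 7 genes from DTX1 (AT2G04040) to AT2G04100, the shared probe set of AT2G04066 and AT2G04080 had 65.2 and 41.4 in the mutant and 100.3 and 85.9 in wild type. Both mutant arrays were lower, and the difference did not pass the threshold (log2 difference -0.70, SE 0.20, limma adjusted p = 0.0834), although it did under some alternatives, among them leaving out mutant replicate 1 (-0.97, adjusted p = 0.0357). AT2G04050 had 6.62 and 8.13 in the mutant and 16.3 and 21.0 in wild type, above background on wild-type replicate 2 alone. AT2G04070 had 28.7 and 31.1 against 35.3 and 26.9, and the shared probe set of AT2G04090 and AT2G04100 had 24.9 and 32.5 against 33.6 and 26.1, so that both overlapped. In the array of AT1G33080 to AT1G33110 the outer genes, described above, did not pass the threshold, and the shared probe set of the inner pair was not above background on any array. None of the probe sets used for the 34 genes carries the array's name mark for probes shared between transcripts, and likeness of the sequences themselves was not tested.

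**Figure D3:**
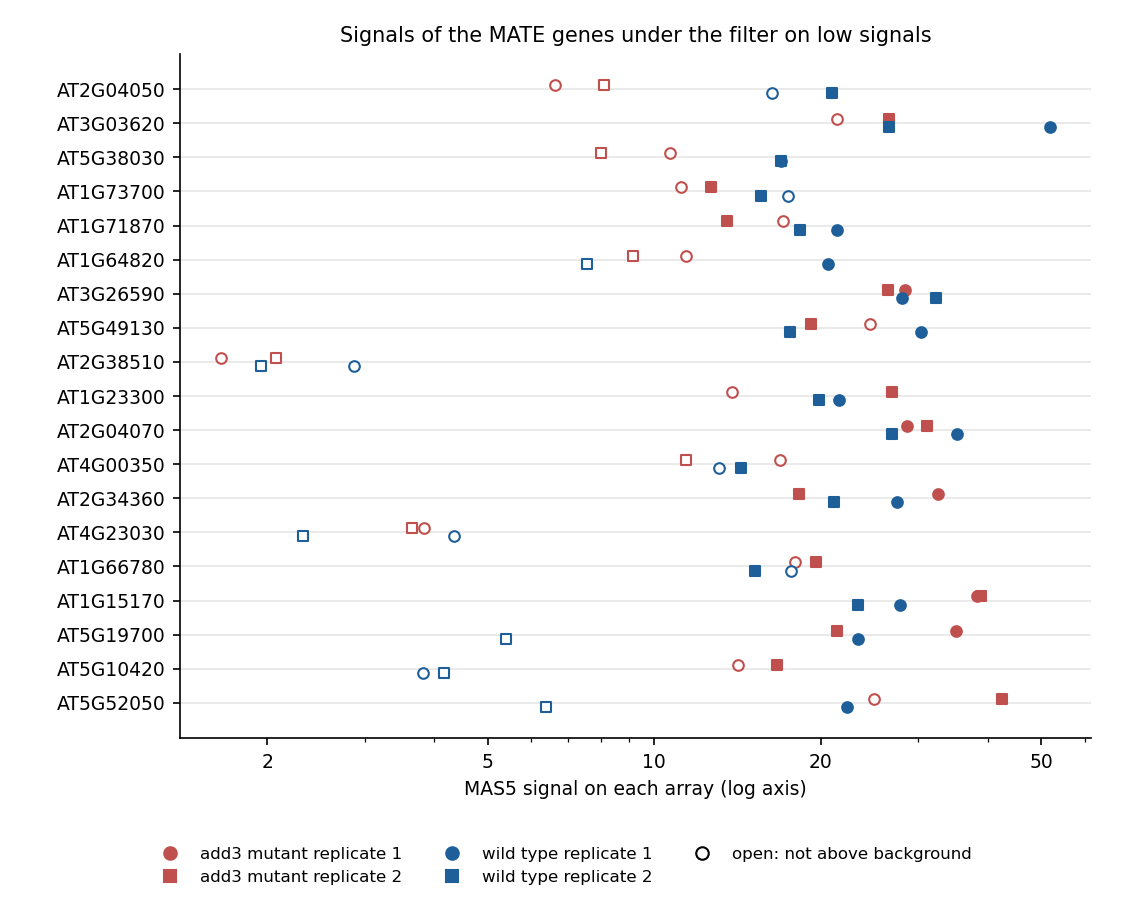
MAS5 signal on each array (log axis) for the 19 MATE genes with a mean signal under the filter, ordered by their difference. Symbols are red for add3 mutant arrays and blue for wild-type arrays, circles for replicate 1, squares for replicate 2, and open where the signal is not above background. Signals run from 1.65 to 51.8. Both mutant arrays of AT5G10420 stand above its wild-type arrays, but only mutant replicate 2 exceeded its background.

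The 19 members under the filter had signals of 1.65 to 51.8. Of these, AT2G38510 and AT4G23030 were not above background on any array, 4 were above it on all 4 arrays and 13 on 1 to 3. Mutant arrays were both lower in 4 of the 19 and both higher in 4. Over all 34 genes with a probe set the counts were 11 lower (32.4%) and 6 higher (17.6%), close to the 30.8% and 19.4% of all non-control probe sets. AT5G10420 had 14.2 and 16.7 in the mutant and 3.83 and 4.17 in wild type. Only mutant replicate 2 exceeded its background, so no fold is given, and with no filter its limma adjusted p was 0.0961, the smallest of the 19. AT5G38030 had 10.7 and 8.02 in the mutant and 16.9 and 16.9 in wild type, above background on 1 array. AT5G19700 had 35.1 and 21.4 against 23.3 and 5.4, with overlapping groups. AT3G26590 has a pair of probe sets, both under the filter, of which the brighter gave 28.3 and 26.4 against 28 and 32.3 and the dimmer 15.9 and 13.9 against 20.0 and 28.

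**Figure D4:**
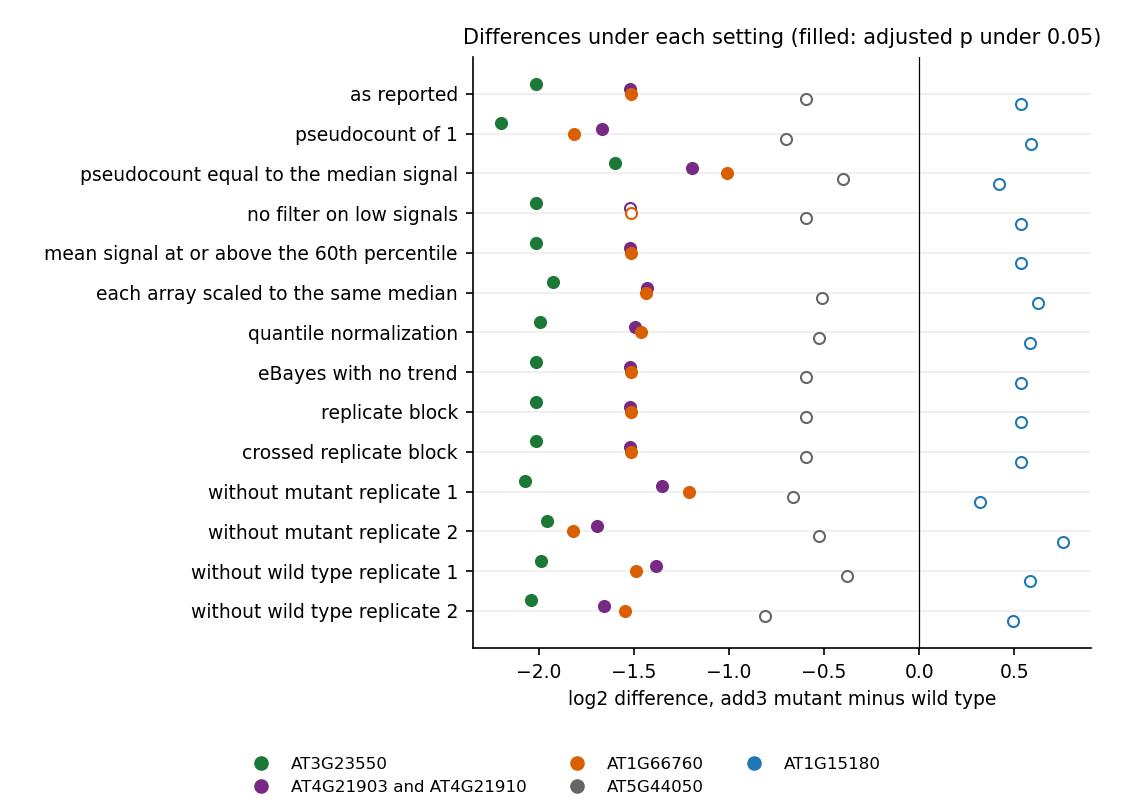
Log2 difference of 4 MATE genes and 1 shared probe set as reported and under 13 alternative settings, with a filled symbol for a limma adjusted p under 0.05 and an open one otherwise. AT3G23550 is filled in each row, AT1G66760 and the probe set of AT4G21903 and AT4G21910 are open only with no filter on low signals, and AT5G44050 and AT1G15180 are open wherever they were tested.

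Another 6 MATE genes lie outside the list, in the branch of citrate and salicylate carriers, and 3 of them were tested with no call (0 at an unadjusted p under 0.05 in limma). Over all tested probe sets 14% were lower and 12.3% higher at that level. AT1G51340, a root citrate exporter, had 32.5 and 45.2 in the mutant and 57.8 and 51.9 in wild type (log2 difference -0.40, limma adjusted p = 0.236). AT2G21340, a close relative of the plastid salicylic acid exporter, had 204 and 193 against 174 and 164 (log2 difference 0.22, limma adjusted p = 0.323). Proton pumps supply the gradient that many MATE carriers use, and of 32 listed pump genes 5 had a probe set and were tested, all of them subunits of the vacuolar ATPase. None of the 5 was called (0 at an unadjusted p under 0.05 in limma), and their median log2 difference was 0.02. The members with the smallest p were AT3G58730 (log2 difference 0.29, limma adjusted p = 0.261) and VHA-A1 (log2 difference -0.24, limma adjusted p = 0.319).

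Few of the genes listed for cargo synthesis or for the handling of foreign compounds had a single-gene probe set in the annotation used and reached the filter. Whether the latter genes act on cargo of MATE carriers was not tested. Of 11 listed genes of proanthocyanidin synthesis and transport, the pathway that TT12 serves, DFR was tested. DFR, a reductase shared with anthocyanin synthesis, had 88.4 and 84.5 in the mutant and 165 and 155 in wild type and fell by 0.80 on the log2 scale (limma adjusted p = 0.0188). That call did not hold in 3 of the alternatives, in which limma gave adjusted p = 0.0607 (no filter), 0.0587 (mutant replicate 2 left out) and 0.0569 (wild-type replicate 1 left out). BAN, the seed coat reductase of the pathway, was not above background on any array, its signals reaching 2.25 at most. Of 28 tau-class glutathione transferases, which tag foreign compounds for removal, 11 had a probe set and 4 were tested. Of the 4, 1 rose, where 4.17% of all tested probe sets rose. GSTU20 had 1013 and 1019 in the mutant and 697 and 612 in wild type (log2 difference 0.63, SE 0.12, limma adjusted p = 0.0292), a call lost without mutant replicate 1 (0.112) or 2 (0.116), with no filter (0.077) and with no intensity trend (0.0596). Of 17 genes induced by foreign chemicals 3 were tested and none was called, where 3.14% of all tested probe sets fell and 4.17% rose. At an unadjusted p under 0.05 in limma 1 of the 3, UGT73B1, was higher (background 14% lower and 12.3% higher). UGT73B1 differed by 0.50 on the log2 scale (limma adjusted p = 0.137) and AT4G01870 by 0.33 (limma adjusted p = 0.396).

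Several MATE genes are known from roots, so root markers are given beside the falls. Of 15 listed root markers 7 had a probe set. Both mutant arrays were lower for 4 of the 7 (30.8% of all non-control probe sets) and both higher for 1, PYK10 (19.4%), and each of those 4 was above background on 2 arrays at most. The root-hair gene EXPA7 had 12.1 and 5.87 in the mutant and 26.8 and 17.9 in wild type. It was not above background in the mutant, where its mean log2 signal gave a bound of at least 1.24-fold lower. Wild-type replicate 2 lay under the background of mutant replicate 1 (25.4), so this bound holds for the group means only. AT2G39040 had 4.78 and 10.9 against 16.6 and 23.0. The summed signal of the 7 markers was 3916 and 3586 in the mutant and 3217 and 3302 in wild type, mostly from PYK10 and AT5G44020. The part of root tissue in the falls of AT3G23550 and AT1G66760 was not tested. Markers of the leaf hair, the shoot meristem and the seed coat endothelium had 1 probe set each, TRY, CLV3 and BAN, above background on 1, 1 and 0 arrays.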

How the data were processed

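The authors deposited a signal intensity for each probe set on each array, and the submitters' processing notes name MAS5 as the tool. Neither its version nor the genome build is given in the sources used here. Sample titles gave the group and the replicate number. Of 22810 probe sets, 64 are controls and were not tested. A single gene was annotated to 13513 probe sets, more than 1 gene to 503, and no gene to 8730. Names and gene order were read from the TAIR10.1 gene table, which 13436 of the 13513 matched. Intensities were kept as deposited and turned into log2(signal + 12.5), with 12.5 being 0.25 of the median signal of 50.1. The fit used lmFit and eBayes (intensity trend, two-sided) of limma 3.58.1 under R 4.3.3 and had 2 residual degrees of freedom. The procedure was tested on simulated data with independent normal noise, which held no batch or array effect. The 4 arrays limit the precision.

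A gene not above background on both arrays of a group has only a bound there, the bright group's mean log2 signal against the background level, given as at least N-fold. The MATE members and gene lists were chosen with earlier results of these data known. Named genes were all called members, other members of the tandem arrays that hold them, the 10 largest differences not called and members of known role, and in other lists up to 4 called genes or the 2 with the smallest p. The other members and the shared probe sets, which that rule leaves out, are named to account for the whole family. Alternatives changed the pseudocount, filter, scaling, variance model, probe set choice, replicate block and arrays used. The alternative probe set choice left out those with the name mark for shared probes. It could not change a member's result, because no probe set used for a member carries that mark. A planned comparison of protein sequences and promoter motifs was not made, as no sequences were used here.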

Additional observations from a re-analysis of the deposited data

How the results depend on the processing

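The count of MATE members that fell was 2 in each alternative except with no filter on low signals, where it was 1, and the count that rose was 0 in each. The alternative probe set choice could not change these counts. The median of the tested members stayed between -0.22 and -0.05. Calls over all probe sets moved from 997 to 13 with no filter and to 555 with no intensity trend, and to 437 to 817 without 1 array, lowest without mutant replicate 1. The replicate numbers shared by the groups do not come with a stated pairing. With a replicate block there were 878 calls over all probe sets, 2 falls and 0 rises among the members, and no member's call changed. Deviations of same-numbered arrays correlated at -0.12, and a crossed replicate block, chosen after seeing the data, gave 1909 calls, with 2 falls and 0 rises among the members and a call for the shared probe set of AT2G04066 and AT2G04080 (limma adjusted p = 0.0383). Of 191 values of the 15 tested members under alternatives, 176 kept direction and call, 1 lost its call and 14 changed sign, all 14 in members that were not called. Without 1 array the log2 difference spanned -0.00647 to 0.11 for AT1G33080, -0.0557 to 0.0853 for AT1G47530, -0.36 to 0.10 for AT1G61890, -0.29 to 0.27 for AT3G21690, -0.32 to 0.0417 for AT5G17700 and -0.0622 to 0.14 for AT5G65380. AT3G21690 was 0.0806 with median scaling and 0.00733 with quantile normalization, and AT1G47530 was -0.0141 with the latter. The cause of these changes was not tested. With a pseudocount of 1 or of the median signal AT1G66760 was -1.81 or -1.01. With 1 array left out the lone array of a group is assumed to vary like the other group. A dim signal limits 19 members, which could not be tested under the filter.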
